A study of Mus musculus with 13 samples.

Results

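The levels of 6 marker genes of border macrophages, Mrc1, Cd163, Lyve1, Pf4, F13a1 and Cbr2, were examined in RNA-Seq data of brain myeloid cells. The genes were taken by their symbols from the 52636 genes listed for every mouse, and all 6 were found. Border macrophages live along blood vessels, in the meninges and in the choroid plexus rather than in the brain parenchyma, where microglia are the resident macrophages. They take up debris, proteins and lipoproteins from the perivascular and cerebrospinal fluid through scavenger and lectin receptors, and the 6 genes are commonly used to tell them from microglia. In β-amyloid models they sit next to the vessels along which β-amyloid can leave the brain or be deposited.

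Cells were sorted from the cortex and hippocampus of PS2APP mice aged 14 to 15 months. PS2APP mice express human presenilin 2 and human amyloid precursor protein with familial Alzheimer's disease mutations and develop β-amyloid plaques. The 13 libraries, 1 per mouse, came from 7 PS2APP;Trem2wt mice, of which 2 were males, and from 6 PS2APP;Trem2ko mice, of which 1 was a male. The groups are labelled PS2APP and PS2APP;Trem2KO in the sample records. The knockout mice carried a Trem2 null allele (KOMP), made on C57BL/6N and crossed into PS2APP mice on C57BL/6J, and the wild-type mice came from the same kind of breeding between carriers of 1 null allele. The parents were homozygous for the PS2APP transgene, so every mouse of both groups carried it, and no comparison with mice free of plaques was possible. Trem2 encodes an immune receptor of microglia and other macrophages, and the deletion was in all cells rather than in microglia alone. The gate kept CD11b+ CD45+ cells without Ly6g or Ccr2, and microglia and border macrophages were collected together. The paper describes these cells as nearly all microglia, with perivascular macrophages of high CD45 at about 2% of the total. Choroid plexus was discarded at dissection and meninges only in part, which limits the border macrophages that could be sampled. Mice were mostly handled in pairs of 1 per genotype on the way to the sorter, but which mice formed a pair is not given in the labels, so a shared processing day could not be taken into account in the genotype test or in the co-variation.

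Trem2 was read at 818 to 1244 nRPKM in the PS2APP;Trem2wt mice and at 0.393 to 2.29 nRPKM in the PS2APP;Trem2ko mice, so each library matched its genotype label. nRPKM is reads per kilobase of gene per unit of sequencing depth after a size-factor adjustment by the authors, and it allows levels of different genes to be set side by side. Total counts ran from 26120961 to 120569609 per mouse. The defining genes of microglia dominated every library: the summed level of 12 homeostatic microglia genes was 14552 to 18157 nRPKM in PS2APP;Trem2wt mice and 15282 to 17112 nRPKM in PS2APP;Trem2ko mice. The summed level of the 6 border macrophage markers was 9.23 to 29.2 nRPKM in PS2APP;Trem2wt mice and 16.0 to 41.2 nRPKM in PS2APP;Trem2ko mice. In a sorted population, fewer border macrophages and less RNA of these genes per cell cannot be told apart.

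The sequences at the starts of the genes were described as well. Promoters of 300 bases, from 250 before to 50 after a start site, were taken from RefSeq on GRCm38.p6. In it 5 of the 6 genes, all but Lyve1, have an entry and F13a1 has 2 start sites, which made 6 promoters. The 3 promoters printed are those that hold GGAAGT, the core of the site of PU.1, a transcription factor required by all macrophages. The motif was searched on both strands, and matches in capitals read ACTTCC where they lie on the opposite strand. The additional capitals TTGCTAAA in the Pf4 promoter mark a match to TTGCNNAA, a C/EBP site. The Mrc1 promoter (chr2:14229164-14229463, plus strand), the Pf4 promoter (chr5:90772185-90772484, plus strand) and the second F13a1 promoter (chr13:37049164-37049463, minus strand) read, 5′ to 3′:
Mrc1: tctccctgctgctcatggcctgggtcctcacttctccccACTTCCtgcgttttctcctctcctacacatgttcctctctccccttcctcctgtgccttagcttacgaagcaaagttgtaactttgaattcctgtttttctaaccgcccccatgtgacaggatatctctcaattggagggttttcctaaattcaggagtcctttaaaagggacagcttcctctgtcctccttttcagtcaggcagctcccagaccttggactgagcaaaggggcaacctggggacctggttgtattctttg
Pf4: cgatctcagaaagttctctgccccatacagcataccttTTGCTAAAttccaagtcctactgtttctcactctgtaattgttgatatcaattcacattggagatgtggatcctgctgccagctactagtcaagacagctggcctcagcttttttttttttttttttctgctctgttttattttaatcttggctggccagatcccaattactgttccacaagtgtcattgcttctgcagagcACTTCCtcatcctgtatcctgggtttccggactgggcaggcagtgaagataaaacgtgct
F13a1: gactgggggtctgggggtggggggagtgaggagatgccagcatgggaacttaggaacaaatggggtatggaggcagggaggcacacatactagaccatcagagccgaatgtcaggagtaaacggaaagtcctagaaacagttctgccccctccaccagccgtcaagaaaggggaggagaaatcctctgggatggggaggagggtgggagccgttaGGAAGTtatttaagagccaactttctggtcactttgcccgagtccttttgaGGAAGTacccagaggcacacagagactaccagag
Counted from the start site, the match began at position -211 in Mrc1, at -10 in Pf4, and at -35 and 16 in F13a1. It was present in 3 of the 6 promoters and in 23.8% of all 32851 mouse promoters of this length. TTGCNNAA was found in 1 of the 6 and in 10.8% of all promoters. TGCTGA, the core of a MAF site, was found in the promoter of Cbr2, in 1 of the 6 and in 19.5% of all. An AP-1 site (TGANTCA, in 7.81% of all promoters), the core of a MEF2 site (3.69%) and the TATA box (TATAAA, 13.6%) had no match in any of the 6. No searched motif was thus present in all 6 windows, which cover 5 genes. Any link between these motifs and the levels of the genes in the mice was not tested. A match is a string of letters and not evidence of binding.

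The first question was whether loss of Trem2 was accompanied by a different level of these genes. It was not detectably so for any of them: 0 of the 6 genes passed an adjusted p of 0.05 or less in the quasi-likelihood test of edgeR, while 2.04% of the 17086 genes tested passed (0.503% higher and 1.53% lower in PS2APP;Trem2ko mice). None had an unadjusted p of 0.05 or less, beside 14.8% of all genes tested. Voom with limma and DESeq2 also called 0 of the 6, beside 2.55% and 5.05% of all genes tested. With only 6 genes, counts of 0 cannot be told from these shares. The median log2 fold change, PS2APP;Trem2ko over PS2APP;Trem2wt, was 0.23 for the 6 genes and 0.0039 for all genes tested. The differences ran from -0.18 for Lyve1 to 0.44 for Cd163, with 4 positive and 2 negative (Lyve1 and Pf4, whose signs turned under limma on log2(nRPKM + 0.1) and under voom with limma). Values of the 2 genotypes overlapped for all 6 genes, while 1.64% of all tested genes did not overlap.

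Among the endocytic receptors, Mrc1 encodes the mannose receptor CD206, which takes up glycoproteins with terminal mannose. The gene (ENSMUSG00000026712) lies at chr2:14229392-14332057 on the plus strand of GRCm38, and the microRNA gene Mir511 lies within its body. Mrc1 was read at 2.01, 4.73 and 6.84 nRPKM (lowest, median and highest) in the 7 PS2APP;Trem2wt mice and at 3.96, 5.59 and 9.60 nRPKM in the 6 PS2APP;Trem2ko mice. The means were 4.83 ± 1.99 and 6.04 ± 2.21 nRPKM (SD, n = 7 and 6). 2 knockout mice, 1 and 3, lay above every wild-type mouse, and the other 4 fell inside the wild-type range. The log2 fold change was 0.32 (SE 0.28, 95% interval -0.28 to 0.92) with an adjusted p of 0.651 in edgeR.

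Cd163 encodes the scavenger receptor for complexes of haemoglobin and haptoglobin. The gene (ENSMUSG00000008845) lies at chr6:124304656-124330527 on the plus strand. Its level was 0.985, 1.82 and 2.13 nRPKM (lowest, median and highest) in PS2APP;Trem2wt mice and 1.44, 2.01 and 3.63 nRPKM in PS2APP;Trem2ko mice, with means of 1.71 ± 0.42 and 2.32 ± 0.86 nRPKM (SD, n = 7 and 6). 3 of the 6 knockout mice lay above every wild-type mouse and the other 3 within the wild-type range. The log2 fold change of 0.44 (SE 0.22) was the largest of the 6, its interval ran from -0.03 to 0.90, and its adjusted p was 0.379 in edgeR (unadjusted p = 0.0667). Cd163 also varied least between mice of a genotype, with an SD of 0.44 on the log2 scale.

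Lyve1 encodes a hyaluronan receptor of lymphatic endothelium that perivascular macrophages share. The gene (ENSMUSG00000030787) lies at chr7:110850607-110863239 on the minus strand. Lyve1 had the lowest level of the 6, with 0.208, 1.08 and 1.69 nRPKM (lowest, median and highest) in PS2APP;Trem2wt mice and 0.634, 0.768 and 1.11 nRPKM in PS2APP;Trem2ko mice. The knockout mice all lay inside the wild-type range, and their SD of 0.203 nRPKM (n = 6) was smaller than the 0.537 nRPKM of the wild-type mice (n = 7), around means of 0.836 and 0.946 nRPKM. That difference in spread was not tested. The log2 fold change was -0.18 (SE 0.36) with an interval of -0.94 to 0.59 and an adjusted p of 0.876 in edgeR. Depth limited this gene more than the others: PS2APP;Trem2wt mouse 4, the lowest, held 23 Lyve1 counts (95% Poisson interval 14.6 to 34.5, counting error only).

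Among the secreted proteins, Pf4 encodes platelet factor 4 (CXCL4), a chemokine stored in platelets and also made by border macrophages. The gene (ENSMUSG00000029373) is short and lies at chr5:90772435-90773383 on the plus strand. Pf4 was read at 2.05, 6.17 and 9.77 nRPKM (lowest, median and highest) in PS2APP;Trem2wt mice and at 3.24, 5.48 and 9.52 nRPKM in PS2APP;Trem2ko mice. All knockout mice fell within the wild-type range, and the means of 5.96 ± 2.34 and 5.82 ± 2.10 nRPKM (SD, n = 7 and 6) were close. The log2 fold change was -0.04 (SE 0.28, 95% interval -0.64 to 0.57) with an adjusted p of 0.969 in edgeR.

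F13a1 encodes the A subunit of coagulation factor XIII, the transglutaminase that cross-links fibrin. The gene (ENSMUSG00000039109) lies at chr13:36867178-37050244 on the minus strand. Gm30489, on the opposite strand, overlaps 74 of its exon bases, and the sources used here do not say whether reads were counted by strand, so reads of the pair in that stretch cannot be told apart. F13a1 had the highest mean level of the 6, with 2.39, 6.57 and 9.34 nRPKM (lowest, median and highest) in PS2APP;Trem2wt mice and 4.25, 6.90 and 12.4 nRPKM in PS2APP;Trem2ko mice. Only knockout mouse 3 exceeded every wild-type mouse. The means were 5.998 ± 2.45 and 7.35 ± 3.10 nRPKM (SD, n = 7 and 6). The log2 fold change was 0.29 (SE 0.30) with an interval of -0.34 to 0.93 and an adjusted p of 0.708 in edgeR.

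Cbr2 encodes a carbonyl reductase, an enzyme that reduces aldehydes and ketones. The gene (ENSMUSG00000025150) lies at chr11:120729489-120732114 on the minus strand, and 12.1% of the 50-base words of its transcripts also occur in Gm11771. That copy held 0 to 1 counts per mouse. Only reads that aligned uniquely were counted, so reads that fit both genes equally may be missing from the level of Cbr2. Cbr2 was read at 1.19, 2.90 and 3.66 nRPKM (lowest, median and highest) in PS2APP;Trem2wt mice and at 1.55, 2.69 and 4.97 nRPKM in PS2APP;Trem2ko mice, with means of 2.63 ± 0.91 and 2.97 ± 1.38 nRPKM (SD, n = 7 and 6). 2 of the 6 knockout mice lay above every wild-type mouse. The log2 fold change was 0.17 (SE 0.30) with an interval of -0.48 to 0.82 and an adjusted p of 0.852 in edgeR.

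**Figure D1:**
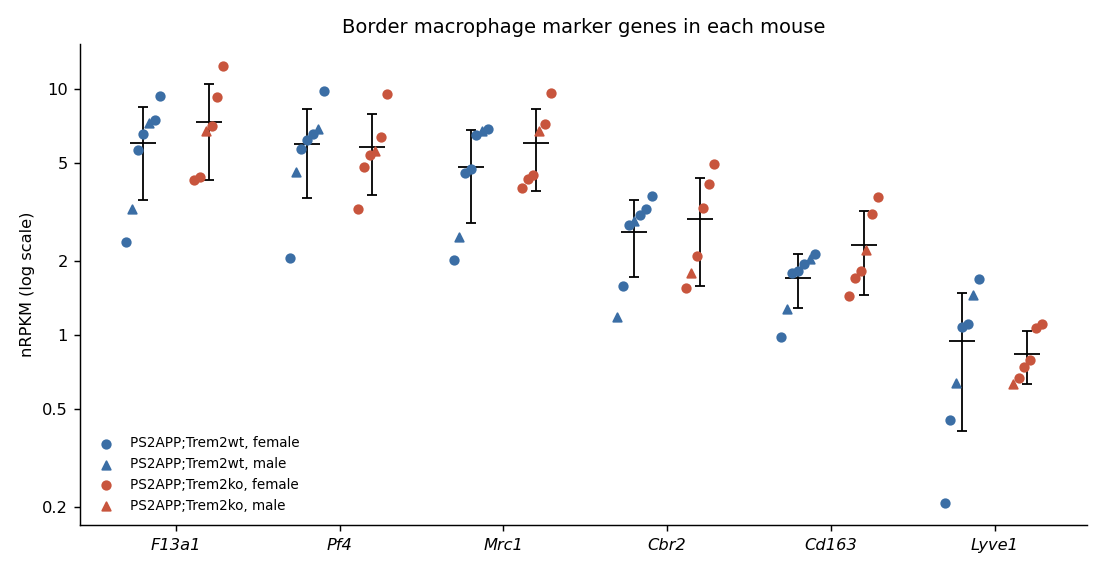
Level of each border macrophage marker gene (nRPKM, log scale) in each mouse. Circles are females and triangles males, blue is PS2APP;Trem2wt (n = 7) and red PS2APP;Trem2ko (n = 6), and black lines are the mean and SD; the 2 genotypes overlap for every gene, and the lowest point is a PS2APP;Trem2wt mouse for all 6.

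The intervals set how large a difference these 13 mice could have hidden. No interval included a 2-fold change in either direction, and all 6 included 0. A two-sided exact permutation test of each gene over the 1716 possible splits, which cannot go below p = 0.00117, gave unadjusted p from 0.149 for Cd163 to 0.976 for Pf4.

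**Figure D2:**
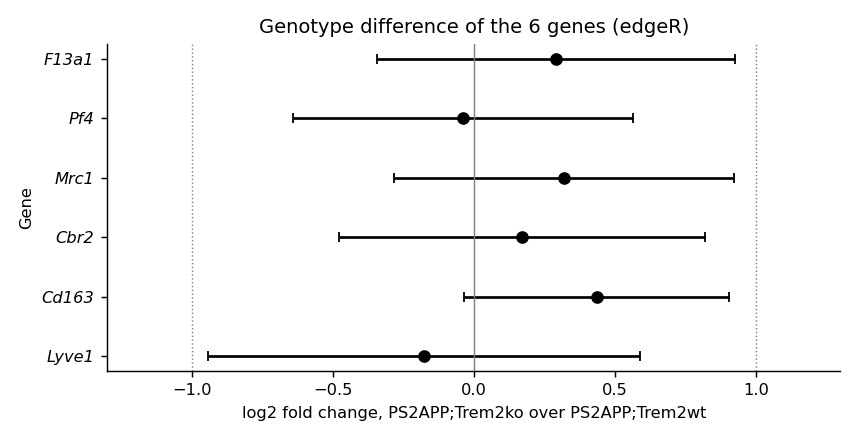
Difference between genotypes for the 6 genes, as log2 fold change of PS2APP;Trem2ko over PS2APP;Trem2wt from edgeR (points) with 95% intervals (bars). The solid line marks no difference and the dotted lines a 2-fold change; every interval spans the solid line and none reaches a dotted line, from -0.94 for Lyve1 to 0.93 for F13a1 at the ends.

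Over all 13 mice F13a1, Pf4 and Mrc1 had the higher levels and Lyve1 the lowest. Mean levels were 6.62 nRPKM for F13a1, 5.89 for Pf4 and 5.39 for Mrc1, then 2.79 for Cbr2, 1.99 for Cd163 and 0.895 for Lyve1. F13a1 and Pf4 did not differ beyond their spread (F13a1 higher in 9 of 13 mice, adjusted permutation p = 0.25), nor did Pf4 and Mrc1 (Pf4 higher in 7 of 13 mice, adjusted permutation p = 0.29). Mrc1 was above Cbr2 in 13 of 13 mice, by 0.95 on the log2 scale (exact permutation test within mice, adjusted p = 0.00061 over the 5 neighbouring pairs). Cbr2 was above Cd163 in 11 of 13 mice, by 0.45 (adjusted permutation p = 0.0045), and Cd163 was above Lyve1 in 13 of 13 mice, by 1.24 (adjusted permutation p = 0.00061). In PS2APP;Trem2wt mice alone 2 of the 5 pairs passed the adjusted threshold, and in PS2APP;Trem2ko mice alone none did, where 6 mice cannot give a permutation p below 0.0313.

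The spread between mice was the most marked feature of these genes. Within a genotype their SD on the log2 scale was 0.44 for Cd163 and 0.61 to 0.70 for the other 5, against a median of 0.25 over all tested genes. Between 78.5% (Cd163) and 95.7% (Lyve1) of tested genes had a smaller SD. The highest mouse exceeded the lowest by 3.69-fold for Cd163, 4.19-fold for Cbr2, 4.75-fold for Pf4, 4.76-fold for Mrc1, 5.18-fold for F13a1 and 8.11-fold for Lyve1.

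The same mice were high or low for most of the genes. PS2APP;Trem2ko mouse 3 had the highest level of 4 genes, Mrc1, Cd163, F13a1 and Cbr2. PS2APP;Trem2wt mouse 4 had the lowest level of 5 genes, all but Cbr2, and was among the lowest 3 mice for all 6. Averaged over the 6 genes on the log2 scale, the highest mouse lay 4.01-fold above the lowest. Both ends of the order held exceptions, since PS2APP;Trem2wt mouse 1 had the highest Pf4, PS2APP;Trem2wt mouse 6 the highest Lyve1 and PS2APP;Trem2wt mouse 7, a male, the lowest Cbr2. The average, as log2 difference from each gene's mean, ran from -1.18 to 0.43 in PS2APP;Trem2wt mice and from -0.35 to 0.83 in PS2APP;Trem2ko mice, so the genotypes overlapped.

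**Figure D3:**
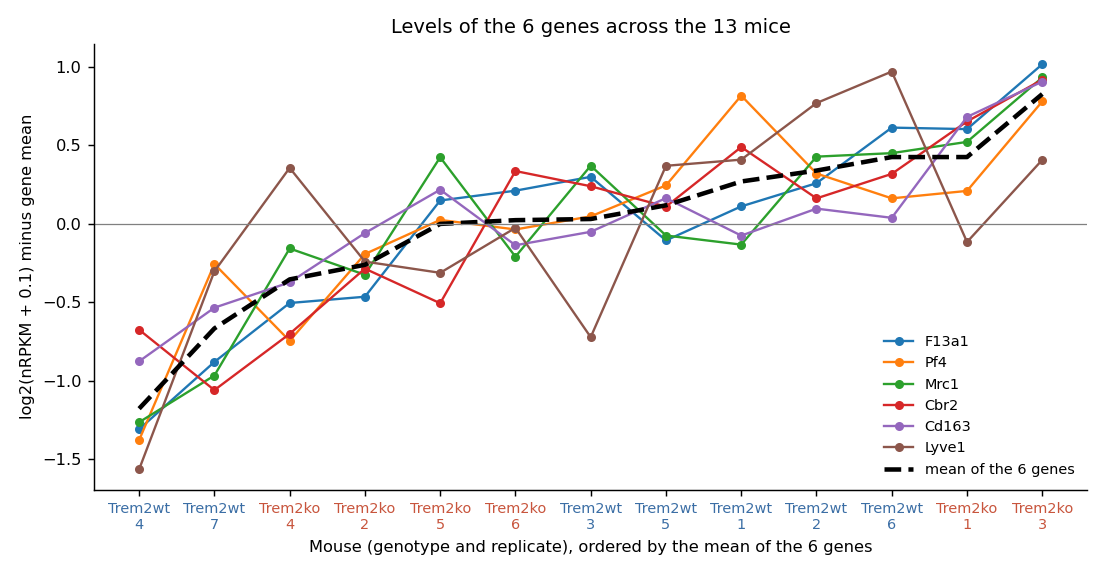
Each gene's level relative to its own mean over the 13 mice (log2(nRPKM + 0.1) minus the gene mean), with mice ordered by the average of the 6 genes (dashed line) and named in blue for PS2APP;Trem2wt and red for PS2APP;Trem2ko. The average rises from -1.18 in PS2APP;Trem2wt mouse 4 to 0.83 in PS2APP;Trem2ko mouse 3, and Lyve1 departs from it most.

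Co-variation was measured over the 13 mice on log2(nRPKM + 0.1), with genotype means subtracted. All 15 pairs of genes had a positive Pearson's r, from 0.45 to 0.94 with a median of 0.76, and 13 of the 15 passed an adjusted p of 0.05 or less in a permutation test within genotypes (11 by Spearman's rho). The closest pair was Mrc1 and F13a1, with r = 0.94 (permutation p = 6e-05) and rho = 0.91 (permutation p = 0.0002). All 10 pairs without Lyve1 had r of 0.74 to 0.94 and passed. The 5 pairs with Lyve1 had r of 0.45 to 0.66, and 3 of them passed. The first principal component held 78.1% of the summed variance of the 6 genes.

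The values of r depended on the mice at the ends of the order. In each pair the 2 mice farthest from the median of 1 gene were left out. That gene was the first of the pair in the order Mrc1, Cd163, Lyve1, Pf4, F13a1 and Cbr2. The mice left out were PS2APP;Trem2wt mouse 4 in every pair and, depending on the gene, PS2APP;Trem2wt mouse 6 or 7 or PS2APP;Trem2ko mouse 3 or 4. r was then still positive in all 15 pairs, at 0.50 to 0.86 for pairs without Lyve1 and at 0.13 to 0.46 for pairs with Lyve1. For Lyve1 the size of this shift differed between partners: r went from 0.61 to 0.13 with Mrc1, from 0.62 to 0.22 with F13a1 and from 0.66 to 0.35 with Pf4, but from 0.45 to 0.30 with Cbr2 and from 0.53 to 0.46 with Cd163. Leaving out the mice at the ends of a gene's range also narrows that range, which by itself lowers r. The mean r over the 15 pairs was 0.75 in all mice, 0.63 without PS2APP;Trem2wt mouse 4, and 0.54 without PS2APP;Trem2wt mice 4 and 7. Within genotypes it was 0.81 in PS2APP;Trem2wt mice and 0.63 in PS2APP;Trem2ko mice, where again all 15 pairs were positive, although after adjustment only 1 pair passed among 7 mice and 2 pairs among 6 mice in the exact permutation test.

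Set against the mean of the other 5, F13a1 followed most closely (r = 0.95), then Cd163 (0.89), Mrc1 (0.88), Pf4 (0.87), Cbr2 (0.80) and Lyve1 (0.62). Relative to that mean the SD between mice dropped from 0.65 to 0.23 for F13a1 and from 0.61 to 0.29 for Mrc1 on the log2 scale, but only from 0.70 to 0.56 for Lyve1. Thus for F13a1 most of the spread between mice was shared with the other markers, and for Lyve1 most of it was not. Sequencing depth moved little with the average of the 6 genes (r = -0.16 and rho = -0.29 with log2 total counts, 13 mice).

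**Figure D4:**
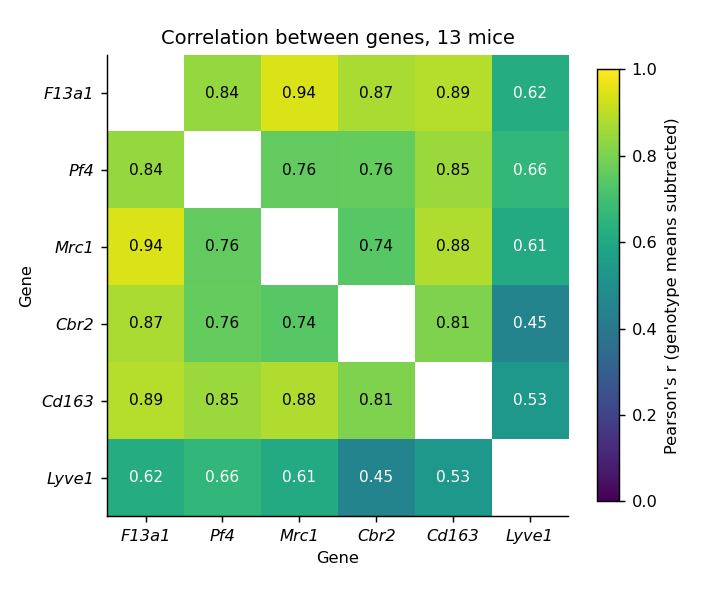
Pearson's r between each pair of the 6 genes over 13 mice, on log2(nRPKM + 0.1) with genotype means subtracted (colour scale from 0 to 1). The 10 pairs without Lyve1 lie between 0.74 and 0.94 and the 5 pairs with Lyve1 between 0.45 and 0.66.

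All 17080 tested genes were ranked by their mean r with the 6 markers. Of the 10 most alike, 3 (Pla2g2d, Cd209f and Ms4a7) were on a list of 20 other border macrophage genes. Cd209a was on a list of dendritic cell genes. Pla2g2d, a secreted phospholipase of resident macrophages, ranked first with a mean r of 0.84. Cd209a (0.83) and Cd209f (0.82), C-type lectins of the DC-SIGN family, and Ms4a7 (0.81) and Ms4a4a (0.80), tetraspan membrane proteins of macrophages, came next. Then followed Gm12844 (0.78), B230217O12Rik (0.78), Wfdc17 (0.77), Ostc (0.76), a subunit of the oligosaccharyltransferase, and Ccs (0.76), the copper chaperone of superoxide dismutase. Ostc and Ccs had mean levels of 67.2 and 15.2 nRPKM, above the mean level of every marker. The mean r of these 10 genes was 0.76 to 0.84 in all mice, 0.51 to 0.67 without PS2APP;Trem2wt mice 4 and 7, 0.74 to 0.88 in PS2APP;Trem2wt mice and 0.52 to 0.82 in PS2APP;Trem2ko mice, with Ostc lowest both without those mice and in PS2APP;Trem2ko mice. The median over all tested genes was 0.016. These are descriptions over 13 mice, and all genes were read in the same libraries, 1 per mouse.

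9 of these 10 genes, like the markers, did not pass the genotype test, which 2.04% of all genes tested passed in edgeR. The exception was Wfdc17, a small secreted protein of activated macrophages and microglia, with a mean level of 24.6 nRPKM, which fell by 2.02 on the log2 scale in PS2APP;Trem2ko mice (adjusted p = 0.0009 in edgeR). It varied with the border macrophage markers among mice of a genotype while differing between genotypes as they did not; the difference between the 2 effects was not tested.

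A list of 20 other border macrophage genes gave counts close to those of the 6. All 20 were tested, and 0 passed in edgeR, voom with limma or DESeq2, beside 2.04%, 2.55% and 5.05% of all genes tested. In edgeR 3 had an unadjusted p of 0.05 or less, beside 14.8% of all genes tested. 10 differences were positive and 10 negative, and their median log2 fold change was 0.06, beside 0.0039 for all genes. 14 of the 20 had an r above 0.5 with the mean of the 6 markers, led by Pla2g2d (0.94), Cd209f (0.92) and Ms4a7 (0.90). Without PS2APP;Trem2wt mice 4 and 7, Folr2 (0.19), Ednrb (0.25) and Clec4a1 (0.44) fell below 0.5, and the others of the 14 stayed above it. The share of all tested genes above 0.5 was not counted. The lowest of the 14, Folr2 (0.53), ranked 944 of 17080 tested genes by mean r with the markers. The r of the list's average was 0.92 (0.85 without PS2APP;Trem2wt mice 4 and 7). The 3 genes of the list with the highest levels did not follow the markers. Hpgd, the prostaglandin-degrading dehydrogenase, was read at 181 ± 15.4 and 153 ± 23.9 nRPKM (SD, n = 7 and 6, wild type and knockout) and had an r of -0.37. Stab1, the scavenger receptor stabilin 1, was read at 39.1 ± 7.56 and 42.9 ± 6.005 nRPKM with an r of -0.47, and Maf, a transcription factor of resident macrophages, at 17.7 ± 3.24 and 21.6 ± 3.31 nRPKM with an r of 0.10. Their levels exceeded those of all 6 markers, and microglia also express them.

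Most microglia genes had negative values, several of them weak. 11 of 12 homeostatic microglia genes had a negative r with the mean of the 6 markers, from -0.56 (Slc2a5) to -0.10 (Gpr34). The r of their average was -0.47 (-0.31 without PS2APP;Trem2wt mice 4 and 7). Without those 2 mice the single genes ran from -0.44 (Sparc) to 0.09 (Siglech). The share of all tested genes with a negative r was not counted, and the median of their mean r with the markers was 0.016. The levels of the microglia genes were far above those of the markers. P2ry12, the ADP receptor of microglia, was at 1949 ± 264 and 1952 ± 252 nRPKM (SD, n = 7 and 6), and Tmem119 at 1420 ± 187 and 1464 ± 95.4 nRPKM. Of the 12, only the fractalkine receptor Cx3cr1 passed the genotype test, beside 2.04% of all genes tested. It fell by 0.49 on the log2 scale in PS2APP;Trem2ko mice (adjusted p = 0.007 in edgeR).

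Genes related to the markers by family or function followed them less closely in value, though that difference was not tested. The list held 17 genes, among them the receptor Mrc2, the CD163 ligand gene Hp, the haem oxygenase gene Hmox1, the hyaluronan receptor gene Cd44, the chemokine gene Ppbp next to Pf4, the factor XIII B chain gene F13b and the reductase genes Cbr1, Cbr3 and Dcxr. 14 were tested and 0 passed in edgeR, with 6 at an unadjusted p of 0.05 or less, 1 passing in voom with limma (Tgm1) and 2 in DESeq2 (Cd44 and Mrc2). Over all 17086 genes, 14.8% had an unadjusted p of 0.05 or less in edgeR. The shares that passed were 2.04% in edgeR, 2.55% in voom with limma and 5.05% in DESeq2. Their median log2 fold change was -0.0019, with 7 positive and 7 negative. The 3 with the highest levels were Dcxr (23.3 ± 1.52 and 24.4 ± 1.78 nRPKM, SD, n = 7 and 6), Cbr1 (21.6 ± 2.36 and 22.2 ± 1.93 nRPKM) and Hmox1 (21.7 ± 2.81 and 21.2 ± 3.58 nRPKM), and the r of the list's average with the 6 markers was 0.30. F13b, made in liver, had 0 counts in all 13 mice.

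Marker lists of other cells were set beside the markers, because some moved with them. The gate excluded Ccr2+ monocytes and Ly6g+ neutrophils and required CD11b and CD45, which astrocytes and the other cells of neural, epithelial or vascular origin lack. The average of 8 monocyte genes had an r of 0.68 with the mean of the 6 markers (0.44 without PS2APP;Trem2wt mice 4 and 7), and their summed level was 4.15 to 25.2 nRPKM in PS2APP;Trem2wt mice and 4.28 to 28.2 nRPKM in PS2APP;Trem2ko mice. For 6 dendritic cell genes the r was 0.61 (0.46 without those 2 mice) and the sums were 2.99 to 11.2 and 6.64 to 22.3 nRPKM. The highest r in that list was that of Cd209a (0.93), which also had its highest level, at means of 5.46 and 7.94 nRPKM. The r of the other dendritic cell genes ran from 0.24 (Clec9a) to 0.39 (Xcr1). For 6 astrocyte genes the r was 0.75 (0.38 without those 2 mice), with sums of 56.3 to 69.9 and 60.0 to 76.1 nRPKM. Most of those sums came from Slc1a3, a glutamate transporter gene, at means of 46.9 and 57.8 nRPKM, which had an r of -0.44 with the markers, while the other 5 astrocyte genes had a positive r. The 5 MHC class II genes, which activated microglia, dendritic cells and border macrophages all use to present antigen, ranged far more widely than the 6 markers, from 213 to 2802 nRPKM and from 218 to 3913 nRPKM when summed, with an r of 0.40 that came to 0.06 without those 2 mice. No gene of these 4 lists passed the genotype test in edgeR, beside 2.04% of all genes tested. Their part in the co-variation of the markers was not tested.

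Since Pf4 is best known from platelets, 8 platelet and megakaryocyte genes were examined. 4 of them were tested, 0 passed in edgeR, beside 2.04% of all genes tested, and 5 had 0 counts in some mice. The highest were Gp9 (13.9 ± 2.83 and 10.3 ± 2.09 nRPKM, SD, n = 7 and 6, with an r of -0.10), Clec1b (1.26 ± 0.26 and 1.22 ± 0.25 nRPKM, r of -0.01) and, by the mean over all mice, Itga2b, the platelet integrin chain (0.060 ± 0.056 and 0.264 ± 0.342 nRPKM, r of 0.15, 0 counts in 2 mice and 0.920 nRPKM in the highest). The remaining tested gene, Gp1ba (0.143 ± 0.037 and 0.152 ± 0.103 nRPKM), was above Itga2b by its median and had an r of 0.54, and of 0.62 without PS2APP;Trem2wt mice 4 and 7. The r of their average with the 6 markers was 0.26, and -0.04 without PS2APP;Trem2wt mice 4 and 7. The 5 tested neutrophil genes all had lower means in PS2APP;Trem2ko mice (median log2 fold change -1.60). Of these 5, 0 passed in edgeR, beside 2.04% of all genes tested. The genotypes overlapped for each of them, and the spread was wide, as for S100a8 (15.6 ± 18.4 and 5.08 ± 3.11 nRPKM, SD, n = 7 and 6). The summed level of the neutrophil list was 15.0 to 265 nRPKM in PS2APP;Trem2wt mice and 0.143 to 46.3 nRPKM in PS2APP;Trem2ko mice. The list had an r of 0.39 with the markers (0.12 without PS2APP;Trem2wt mice 4 and 7). Without those 2 mice several further lists changed the sign of their r, from 0.16 to -0.16 for lymphocytes, from 0.16 to -0.03 for fibroblasts and mural cells, from 0.04 to -0.36 for endothelium and from -0.32 to 0.20 for choroid plexus epithelium. For oligodendrocytes r was 0.45 and then 0.33, and for neurons 0.32 and then 0.07. These 6 lists also held no gene that passed in edgeR, beside 2.04% of all genes tested. The mast cell genes were too low to be tested, with 2 of 4 at 0 counts in every mouse.

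**Figure D5:**
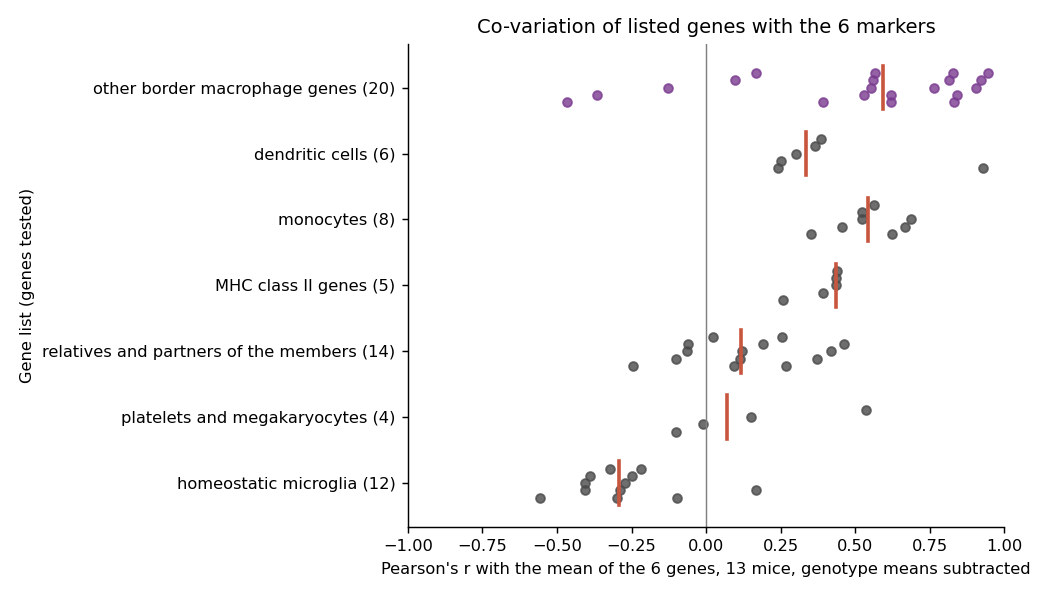
Pearson's r of each tested gene with the mean of the 6 markers over 13 mice, on log2(nRPKM + 0.1) with genotype means subtracted, by gene list (number of genes in brackets; each point is a gene and the red bar the median of its list). Most other border macrophage genes lie right of 0.5 (14 of 20) and 11 of 12 homeostatic microglia genes lie left of 0.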

How the data were processed

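RNA was measured in FACS-sorted CD11b+ CD45+ Ly6g- Ccr2- cells of 13 mice, 1 library per mouse. The values deposited for each gene are counts of reads that aligned uniquely, not normalized, and nRPKM, an RPKM that the authors adjusted by size factors. Per the study's methods and labels, reads were single-end, low-quality and rRNA reads were removed, and alignment was to GRCm38 with GSNAP. Strand use in counting is not given in the sources used here. Keeping only unique alignments can lower genes with near-identical copies.

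Genotypes were compared on the deposited counts with edgeR 4.0.16 in R 4.3.3 (filterByExpr by genotype, TMM, glmQLFit and glmQLFTest, no covariate, Benjamini-Hochberg over 17086 genes). The study's own tool, voom with limma (3.58.1), and DESeq2 1.42.0 were alternatives. Levels and co-variation used the deposited nRPKM with a pseudocount of 0.1. Correlation p-values came from 100000 permutations within genotypes, exact permutations within 1 genotype, adjusted over 15 pairs. Neighbouring levels were compared by exact two-sided sign-flip permutation within mice, adjusted over 5 pairs. Other alternatives were RLE factors, other count filters, thinned counts, sex as a covariate, females only, a pseudocount of 1, a 2-fold threshold, Spearman's rho, log2 CPM and leaving out each mouse.

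The 6 genes and all lists were chosen with earlier results of these data known. Named were the 6 genes, list genes passing an adjusted p of 0.05 or less, the 3 with the highest level in 4 lists, the 10 genes with the highest mean r, and Trem2. 1 gene that this rule names is not reported here. Members of the related list, and single list genes picked for a call in an alternative, their r or their level, were named after their values were seen.

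In simulated data (PS2APP;Trem2ko against PS2APP;Trem2wt, 16757 genes tested, 194 of them changed), edgeR recovered 59% of 2-fold and 92% of 4-fold changes and called 8 unchanged genes. All 36 same-genotype pairs of mice differed beyond sampling noise (lowest chi-square 18.1 times its expected value). Total counts ranged from 26120961 to 120569609, and 3 counts were taken as the detection floor. Intervals on counts cover counting error only.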

Additional observations from a re-analysis of the deposited data

How the results depend on the processing

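0 of the 6 genes passed under any of 24 alternatives, and the lowest adjusted p of any of them was 0.27. A fold change of each gene was had in 23 of these, and 128 of the 138 values kept their direction. The sign of Lyve1 turned with voom and limma (0.0768), with limma on log2(nRPKM + 0.1) (0.0218) and between -0.35 and 0.0194 when single mice were left out. The sign of Pf4 turned with voom and limma (0.0247), with limma on log2(nRPKM + 0.1) (0.0128) and with the pseudocount of 1 (0.00071), and between -0.23 and 0.12 when single mice were left out. Cbr2 ranged from -0.0323 (without PS2APP;Trem2ko mouse 3) to 0.30. Over all genes, 348 passed in edgeR, 862 in DESeq2, 127 when a 2-fold change was also required, and 244 to 357 with 1 mouse left out. Of the related genes 0 passed in edgeR, 1 in voom with limma and 2 in DESeq2, beside 2.04%, 2.55% and 5.05% of all genes tested. The mean r of the 15 pairs was 0.75, and it was 0.81 in PS2APP;Trem2wt mice, 0.63 in PS2APP;Trem2ko mice, 0.54 without the 2 mice farthest from the median, and 0.63 to 0.79 with 1 mouse left out. The lower end came without PS2APP;Trem2wt mouse 4 and the upper end without PS2APP;Trem2wt mouse 3. In the order of levels, 3 of 5 neighbouring pairs passed in all mice and 0 in PS2APP;Trem2ko mice alone. The cause of these shifts was not tested, and the settings within 1 genotype or with mice left out also held fewer mice. No paired analysis was possible because the labels do not say which mice were processed as a pair. Depth limited Lyve1 most, at 23 counts in the shallowest value.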

Other observations

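Other genes of border macrophages differed in how they followed the 6 markers and in the direction of their fold changes. Ccl8, a chemokine gene, had an r of 0.76 with the mean of the 6 markers over 13 mice, and levels of 0.472 to 7.55 nRPKM. Cd38, an ectoenzyme gene, had an r of 0.82, with 0.876 ± 0.295 nRPKM in PS2APP;Trem2wt mice and 0.474 ± 0.250 nRPKM in PS2APP;Trem2ko mice (SD, n = 7 and 6). Its log2 fold change was -0.89 (SE 0.33), and its adjusted p in edgeR was 0.202. Cd36, a fatty acid scavenger receptor gene, was at 1.35 ± 0.80 and 0.729 ± 0.421 nRPKM. Its log2 fold change was -0.88 (SE 0.42) at an adjusted p of 0.343 in edgeR, and it had an r of 0.39 that came to -0.05 without PS2APP;Trem2wt mice 4 and 7. The lectin genes Mgl2 (0.81, SE 0.43) and Cd209g (0.99, SE 0.46) had log2 fold changes in the opposite direction that also did not pass (adjusted p = 0.409 and 0.337 in edgeR). Their r with the mean of the markers was 0.62 for Mgl2 and 0.84 for Cd209g. These genes were picked after their values were seen.

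Among the 14 groups of per-mouse values tested for a mouse far from the rest of its genotype (6 markers and their average, in each genotype), 0 passed Dixon's test. That test sets 1 extreme mouse against its nearest neighbour, so mice that lie low together can hide each other. The average was -1.18 in PS2APP;Trem2wt mouse 4 and -0.67 in mouse 7, and the next lowest of that genotype was 0.03.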
